A study of Saccharomyces cerevisiae with 12 samples.

Results

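The histone genes of budding yeast were followed in 2 strains, H2B WT and the H2B R95A mutant, without and with rapamycin. Of the 5449 genes measured on the array, 8 were taken by name: HTA1 (H2A), HTB1 (H2B), HHT1 and HHT2 (H3), HHF1 (H4), HTZ1 (the variant H2A.Z), HHO1 (linker histone) and CSE4 (the centromeric H3 variant). They were not picked by a measured value, though earlier results of these data were known when they were chosen. HTA2 and HTB2, the remaining H2A and H2B genes, are deleted in the parent strain, and their probe sets are described separately as a check. Each of the 8 genes had exactly 1 probe set, and all 8 were among the 5498 probe sets tested.

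Core histones form the octamer around which DNA is wrapped, and budding yeast carries each core histone in a pair of gene copies that sit head to head, an H2A gene beside an H2B gene and an H3 gene beside an H4 gene. Transcription of these pairs is held to late G1 and S phase by SBF and MBF, and most of the pairs are repressed outside S phase by the HIR complex. Yeast histone mRNAs, unlike the replication-dependent ones of animals, carry a poly(A) tail and so are seen by labelling that starts from oligo-dT. HTZ1 is placed into chromatin by the SWR1 complex outside replication, CSE4 marks the centromere, and HHO1 is the H1-like protein. Rapamycin inhibits TORC1, the kinase complex that couples nutrients to growth.

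The 4 groups held 3 arrays each, 12 in all. They were H2B WT untreated, H2B WT with rapamycin (200 ng/ml, left for 30 min), H2B R95A untreated and H2B R95A with the same dose and time. Both strains came from a library of H2A and H2B mutants in the MATa background FY406, in which the chromosomal HTA1-HTB1 and HTA2-HTB2 pairs are replaced by LEU2 and TRP1. In every group, control and mutant, H2A and H2B were therefore supplied only by an HTA1-HTB1 pair on a single-copy plasmid with a HIS3 marker. All groups also share auxotrophic alleles of HIS3, LEU2, URA3, TRP1 and LYS2. In R95A, arginine 95 of H2B is an alanine. A 3' expression probe set cannot show that substitution, so the HTB1 signal does not check the genotype. Values are log2 signals, so a difference of 1 is a 2-fold difference, and since probes differ in how strongly they bind, the signals of different probe sets do not rank the mRNAs. The labels do not say whether the replicates were separate cultures, and p-values then measure only the spread between these arrays, which may be technical.

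Across the series the arrays had median signals of 7.25 to 7.30 over the tested probe sets, and no pair was identical. Replicate 1 stood apart in all 4 groups. The mean of 12 glucose-repressed genes was 10.56 to 10.80 on the replicate 1 arrays and 6.37 to 8.69 on the other 8. Untreated H2B WT replicate 3 was low for ribosome biogenesis genes, with a mean over 20 genes of 5.26 against 6.98 and 7.37 in the other two. Cell-type genes differed between the strains, though both are given as MATa. Of 7 genes specific to a cells, 6 passed the test as lower in H2B R95A, untreated and with rapamycin, with a median difference of -4.41 untreated. The paper reports lower expression of pheromone pathway genes in this mutant, and a failure to arrest with alpha factor. The mating type of the mutant was not tested here. The mean of the 7 was 8.25 to 10.13 on the WT arrays and 4.42 to 5.51 on the R95A arrays. None of 4 alpha-specific genes passed the test in either strain comparison, and their mean was 4.38 to 4.97 in WT and 3.48 to 3.89 in R95A. Whether this difference in cell-type genes has a part in any histone value was not tested. Since the same groups enter several comparisons, the 5 comparisons below share arrays and are not independent of each other.

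The H2A and H2B genes are on the plasmid in every group. HTA1, which codes for H2A, gave 11.18, 11.26 and 11.33 on the untreated WT arrays, 11.00, 11.41 and 11.38 with rapamycin, 11.46, 11.15 and 11.29 in untreated R95A and 11.32, 11.57 and 11.50 in treated R95A, in the order of replicates 1 to 3. The 4 groups overlapped, within a range of 0.58 over all arrays. HTB1, the gene that carries the R95A substitution in the mutant, gave 12.05, 12.17 and 12.39 in untreated WT, 11.98, 12.27 and 12.31 in treated WT, 12.24, 12.16 and 12.35 in untreated R95A and 12.32, 12.30 and 12.40 in treated R95A. The groups overlapped here too, and the whole range over 12 arrays was 0.41. Its highest value was 12.40, the highest signal of any tested probe set on any array was 12.96, and whether bright signals are compressed on these arrays was not tested.

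Among the H3 and H4 genes, which are on the chromosomes, HHT1 varied most between arrays. HHT1, an H3 gene, gave 10.37, 11.00 and 11.37 in untreated WT, 10.49, 11.30 and 11.33 in treated WT, 10.58, 10.44 and 10.67 in untreated R95A and 10.51, 11.23 and 11.44 in treated R95A. Its values fell into a low set of 10.37 to 10.67, which held every replicate 1 array and all 3 untreated R95A arrays, and a high set of 11.00 to 11.44. HHT2, the other H3 gene, gave 10.98, 11.14 and 11.39 in untreated WT, 11.00, 11.33 and 11.44 in treated WT, 10.97, 11.10 and 11.15 in untreated R95A and 11.16, 11.38 and 11.36 in treated R95A. Only the last pair of groups, R95A without and with rapamycin, did not overlap. HHF1, an H4 gene, gave 10.47, 10.37 and 10.93 in untreated WT, 10.33, 10.86 and 10.84 in treated WT, 10.56, 10.46 and 10.73 in untreated R95A and 10.67, 11.09 and 10.96 in treated R95A, with overlap in each comparison. Its probe set is of a type that matches more than 1 transcript, and the other H4 gene, HHF2, has no probe set of its own among those tested, so the HHF1 value may hold H4 mRNA from both genes.

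The other 3 genes code for the variants and the linker histone. HTZ1, the H2A.Z gene, gave 7.93, 7.91 and 7.73 in untreated WT, 8.03, 7.74 and 7.79 in treated WT, 7.93, 8.00 and 8.14 in untreated R95A and 7.98, 8.00 and 7.84 in treated R95A. The untreated R95A arrays lay just above the untreated WT arrays, and the treated groups overlapped. HHO1, the linker histone gene, gave 8.95, 9.42 and 9.11 in untreated WT, 9.38, 9.47 and 9.32 in treated WT, 9.16, 9.65 and 9.59 in untreated R95A and 9.79, 9.94 and 9.30 in treated R95A. Group means ran in that order from 9.16 ± 0.24 (SD, n = 3) through 9.39 ± 0.08 and 9.47 ± 0.27 to 9.68 ± 0.34, but every pair of neighbours overlapped. CSE4, the centromeric H3 gene, gave 7.40, 6.72 and 7.10 in untreated WT, 7.48, 7.09 and 7.31 in treated WT, 7.36, 6.97 and 6.67 in untreated R95A and 7.38, 7.15 and 7.20 in treated R95A. The lowest values were in the untreated groups, 6.72 in WT and 6.67 in R95A, with no treated array below 7.09, and the groups overlapped in each comparison.

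**Figure D1:**
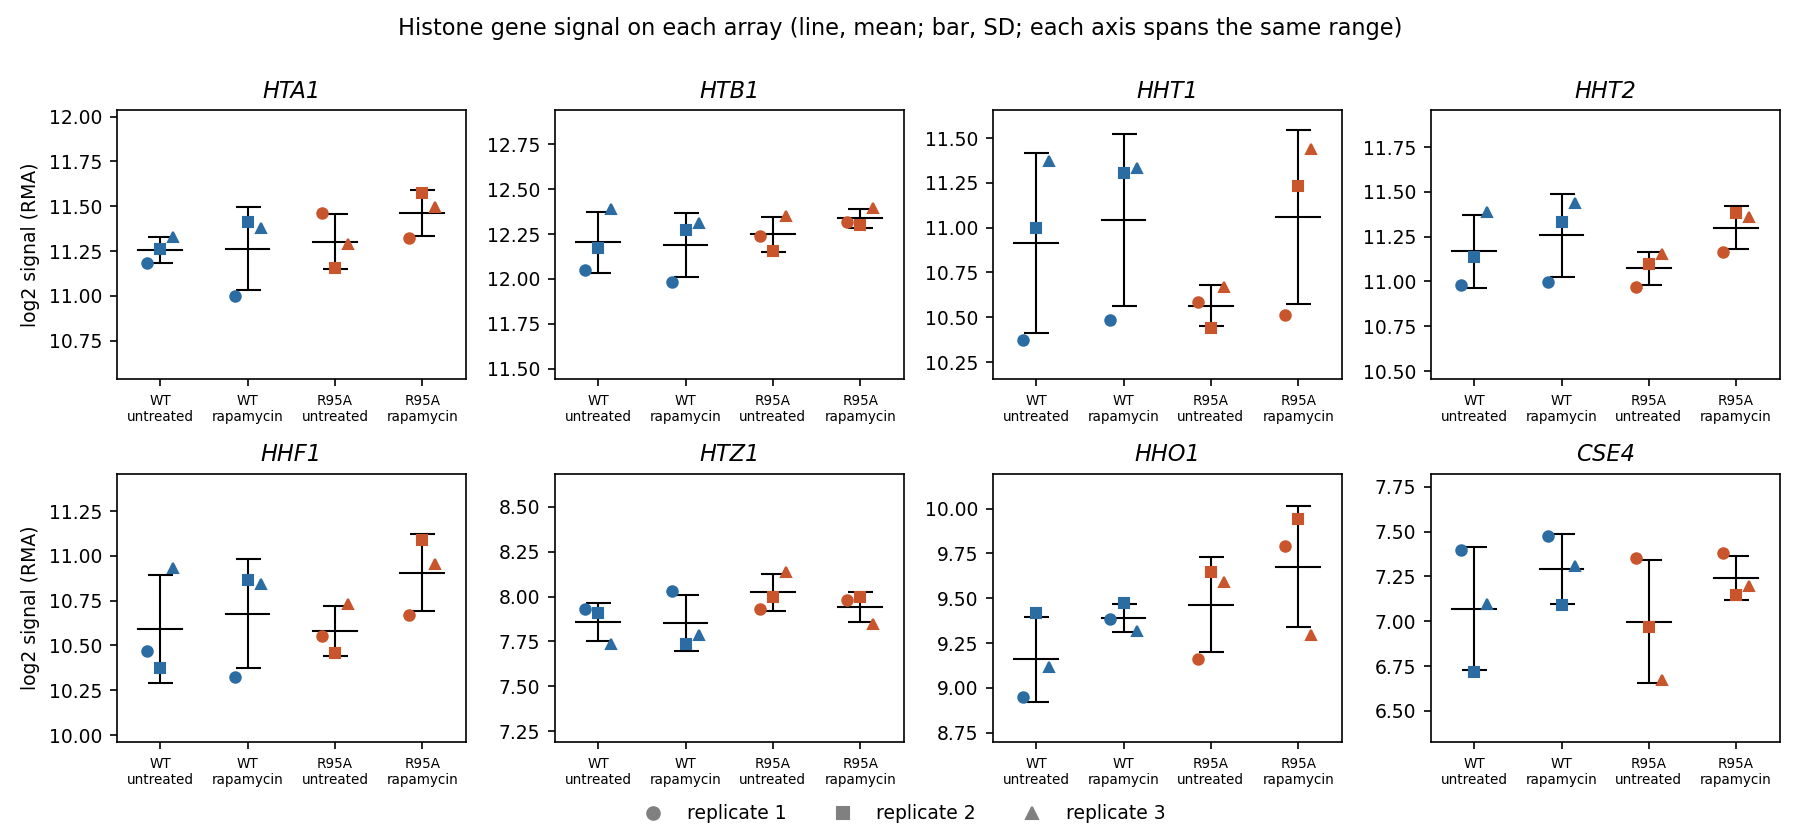
Each panel plots the log2 signal of 1 histone gene (vertical axis, the same span in each panel) for the 4 groups, with a symbol for each replicate number, the group mean as a line and the SD as a bar (n = 3). HTB1 stays within 0.41 over 12 arrays, while HHT1 splits into arrays at 10.37 to 10.67 and arrays at 11.00 to 11.44.

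The order of the group means differed from gene to gene, and neighbours in it lay within the spread. HTA1 ran from 11.26 ± 0.07 in untreated WT through 11.26 ± 0.23 in treated WT and 11.30 ± 0.15 in untreated R95A to 11.46 ± 0.13 in treated R95A (SD, n = 3 each). HTB1 went from 12.19 ± 0.18 in treated WT to 12.34 ± 0.05 in treated R95A. HHT1, HHT2 and CSE4 had their lowest mean in untreated R95A, at 10.56 ± 0.11, 11.07 ± 0.09 and 7.00 ± 0.34. The mean of HHF1 was also lowest there, 10.58 ± 0.14, but was 10.59 ± 0.30 in untreated WT. HTZ1 was the one gene with its highest mean in untreated R95A, 8.02 ± 0.11.

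Without rapamycin, the histone mRNAs of H2B R95A did not differ detectably from those of H2B WT. In limma, 0 of the 8 genes passed the test (Benjamini-Hochberg adjusted p under 0.05), where 0.4% of all tested probe sets did, and 0 of 8 had an unadjusted p under 0.05 in limma (4.93% of all) or in cyber-T. HTA1 differed by 0.05 (95% interval -0.35 to 0.44, adjusted p = 0.948) and HTB1 by 0.04 (-0.33 to 0.42, adjusted p = 0.945). In fold terms these intervals are 0.787 to 1.35 times the WT signal for HTA1 and 0.798 to 1.33 times for HTB1. Both probe sets are bright, and whether such signals are compressed was not tested. The widest interval was that of HHT1, at -0.35 (-1.07 to 0.37, adjusted p = 0.777), which takes in a 2-fold decrease. HHT2 differed by -0.10, HHF1 by -0.01 and CSE4 by -0.07, each with an interval that spans 0. HHO1 was at 0.30 (-0.19 to 0.80, adjusted p = 0.741) and HTZ1 at 0.17 (-0.20 to 0.53, adjusted p = 0.785). HTZ1 was the 1 gene of 8 whose groups did not overlap, as did not those of 6.91% of all tested probe sets. The 8 differences had a median of 0.02 and 4 of 8 were positive, beside a median of -0.04 and 45.2% positive over all tested probe sets. When arrays were centred on the mean of 12 bacterial spike-in controls, 1 of 8 was positive, with a median of -0.16 beside -0.22 over all. The mean of these controls itself ran from 4.35 to 5.93 over the 12 arrays, with both ends within untreated R95A, so this scale is a noisy one.

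With rapamycin in both strains, again no difference in a histone mRNA was detected. None of the 8 passed the test in limma (background 0.346%), 0 of 8 had an unadjusted p under 0.05 in limma (1.51% of all) or cyber-T, and the groups of all 8 overlapped, against 4.38% of all tested probe sets without overlap. With the replicate number as a block, 36 probe sets passed in place of 19, and still 0 of the 8 histone genes. HHO1 had the largest difference of the 8, 0.29 (-0.21 to 0.78), followed by HHF1 at 0.23 (-0.26 to 0.72), HTA1 at 0.20 (-0.19 to 0.59) and HTB1 at 0.15 (-0.22 to 0.52). HTZ1 was at 0.09, HHT2 at 0.04, HHT1 at 0.02 (-0.70 to 0.74) and CSE4 at -0.05. Of the 8, 7 were positive with a median of 0.12, beside 53.9% positive and a median of 0.02 over all. That sign depends on the scaling: with spike-in centring, 0 of 8 were positive and the median was -0.25, while the median of all tested probe sets moved to -0.35, below that of the histone genes on either scale.

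In H2B WT, no change of a histone mRNA with rapamycin was detected. No gene of the 8 passed the test in limma (background 0%), 0 of 8 reached an unadjusted p under 0.05 in limma (4.27% of all) or cyber-T, and 0 of 8 had groups without overlap, against 7.69% of all tested probe sets. With the replicate number as a block, 0 of 8 passed and 0 of 8 had an unadjusted p under 0.05. HTA1 changed by 0.01 (-0.38 to 0.40), HTB1 by -0.01 (-0.38 to 0.36) and HTZ1 by -0.00 (-0.37 to 0.36). HHT1 was at 0.13 (-0.59 to 0.85), while HHT2 and HHF1 were both at 0.09. HHO1 at 0.23 (-0.26 to 0.72) and CSE4 at 0.22 (-0.29 to 0.74) had the largest values. The median of the 8 was 0.09 with 6 of 8 positive, beside 0.04 and 56.3% over all. On the same arrays the 20 ribosome biogenesis genes had a median of -1.11 and 0 of 20 passed the test. Of the 20, 6 had an unadjusted p under 0.05 in limma, all as lower. NOC2 and RRS1 of this list had SEs of 0.62 and 0.83, while the histone genes had 0.16 (HTZ1) to 0.33 (HHT1). The spread of the lists differs, so this count does not tell what shift of a histone gene would have been called.

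In H2B R95A, rapamycin went with higher values for 7 of the 8 genes, none of which passed the test on the 12 arrays. The count in limma was 0 of 8 (background 0%), with 0 of 8 at an unadjusted p under 0.05 in limma (17.3% of all) or cyber-T. HHT1 had the largest difference, 0.50 (-0.23 to 1.22, adjusted p = 0.455), followed by HHF1 at 0.32 (-0.17 to 0.81, adjusted p = 0.474), CSE4 at 0.24 (-0.27 to 0.76), HHT2 at 0.23 (-0.18 to 0.63), HHO1 at 0.21 (-0.28 to 0.70), HTA1 at 0.16 (-0.23 to 0.55) and HTB1 at 0.09 (-0.28 to 0.46). HTZ1 alone was negative, at -0.08 (-0.44 to 0.28). HHT2 was the 1 gene of 8 whose groups did not overlap, beside 17.9% of all tested probe sets. The median was 0.22 over the 8 and 0.23 over the 5 core genes, against 0.10 over all tested probe sets, of which 59.8% were positive. With spike-in centring the median of the 8 went to -0.00, with 4 of 8 positive, and that of all probe sets to -0.12.

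The change of HHT1 with rapamycin in H2B R95A was the one value of the 8 genes to pass the test when arrays were left out. Within replicate numbers its change with rapamycin was -0.07 in replicate 1, 0.79 in replicate 2 and 0.77 in replicate 3. Without the replicate 1 arrays of all groups it was 0.78 (SE 0.20, adjusted p = 0.0490, limma), and HHT1 passed the test, as did 13% of all tested probe sets in that fit. The untreated R95A arrays were the low side of this difference. Between untreated strains HHT1 was lower in R95A by 0.56 in replicate 2 and by 0.70 in replicate 3 but higher by 0.21 in replicate 1, and without replicate 1 the difference was -0.63, which did not pass the test (adjusted p = 0.146, limma). The test of the difference between the responses of the strains did not pass for HHT1 on 12 arrays (0.37, -0.65 to 1.39, adjusted p = 1.00) or without replicate 1 (0.65, adjusted p = 0.577).

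The responses of the 2 strains to rapamycin did not differ detectably for any of the 8 genes (0 of 8 in limma, background 0%, and 0 of 8 at an unadjusted p under 0.05, as 0.146% of all were; cyber-T compares 2 groups and was not run). The differences of the responses ran from -0.08 for HTZ1 through -0.02 for HHO1, 0.02 for CSE4, 0.10 for HTB1, 0.14 for HHT2, 0.15 for HTA1 and 0.24 for HHF1 to 0.37 for HHT1. Of the 8, 6 were positive, beside 56% of all tested probe sets, and all 8 intervals held 0. The interval of HTB1, the narrowest among the core genes, was -0.42 to 0.63.

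**Figure D2:**
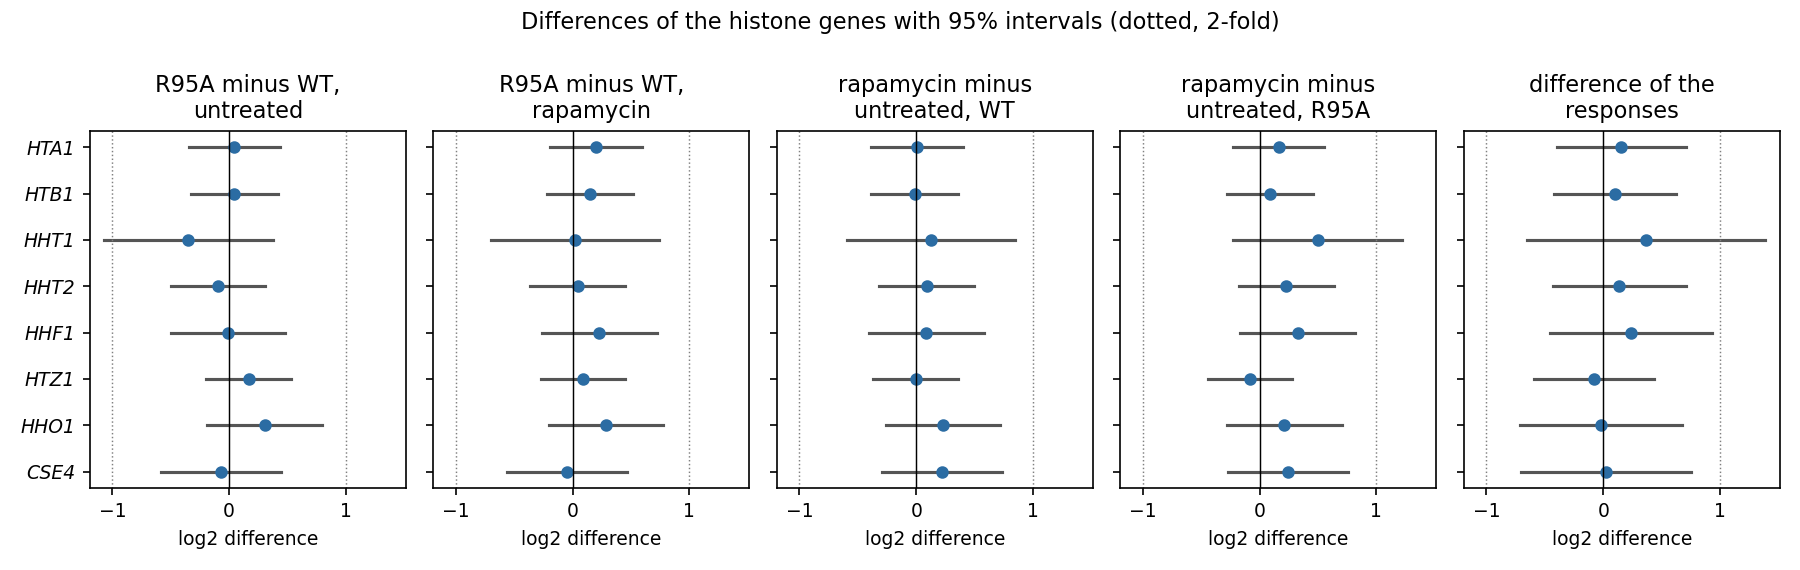
Points are the log2 differences of the 8 histone genes in each of the 5 comparisons (horizontal axis) and lines their 95% intervals from limma; dotted lines mark a 2-fold difference. Every interval holds 0, and those of HHT1 are the widest (0.50, -0.23 to 1.22, for rapamycin in R95A).

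HTA2 and HTB2 are deleted in both strains, and their probe sets gave signal all the same. HTB2 gave 5.80, 5.77 and 5.90 in untreated WT, 6.05, 6.02 and 5.96 in treated WT, 5.63, 5.44 and 5.66 in untreated R95A and 5.96, 6.07 and 5.97 in treated R95A. As a rough guide to background, 95% of the 1746 fission yeast probe sets on the same arrays, whose probes are others, had a mean under 1.37. HTA2 has a pair of probe sets. The first gave 6.16 to 7.02 over 12 arrays. The second, of the type that matches more than 1 transcript, gave 11.29 to 11.76 and followed the HTA1 probe set with a Pearson r of 0.91 over the 12 arrays, which share strains and replicate numbers. Whether these signals come from the plasmid-borne copies was not tested.

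The HTB2 probe set varied less within groups than any of the 8 genes, with a mean SD of 0.07. Its treated arrays lay above the untreated ones without overlap in both strains, by 0.19 in WT (-0.16 to 0.53, adjusted p = 1.00) and 0.42 in R95A (0.08 to 0.77, unadjusted p = 0.0197, adjusted p = 0.203, limma), and the untreated R95A arrays lay below the untreated WT arrays, by -0.25 (-0.59 to 0.10, adjusted p = 0.733). None of these passed the test. Of all tested probe sets, groups did not overlap for 7.69% with rapamycin in WT, 17.9% with rapamycin in R95A and 6.91% between untreated strains. With rapamycin in R95A, 17.3% of all had an unadjusted p under 0.05 in limma. HTB1 on the same arrays changed by 0.09 with rapamycin in R95A. HIS3, the marker of the plasmid, was at 10.11 to 11.42 on the untreated WT arrays and 11.23 to 11.92 on the untreated R95A arrays, a difference of 0.75 (SE 0.39, adjusted p = 0.733, limma) that also did not pass and was 0.38 without untreated WT replicate 3. With rapamycin HIS3 differed by 0.52 between the strains. Its part in the HTA1 and HTB1 values, which share the plasmid, was not tested.

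**Figure D3:**
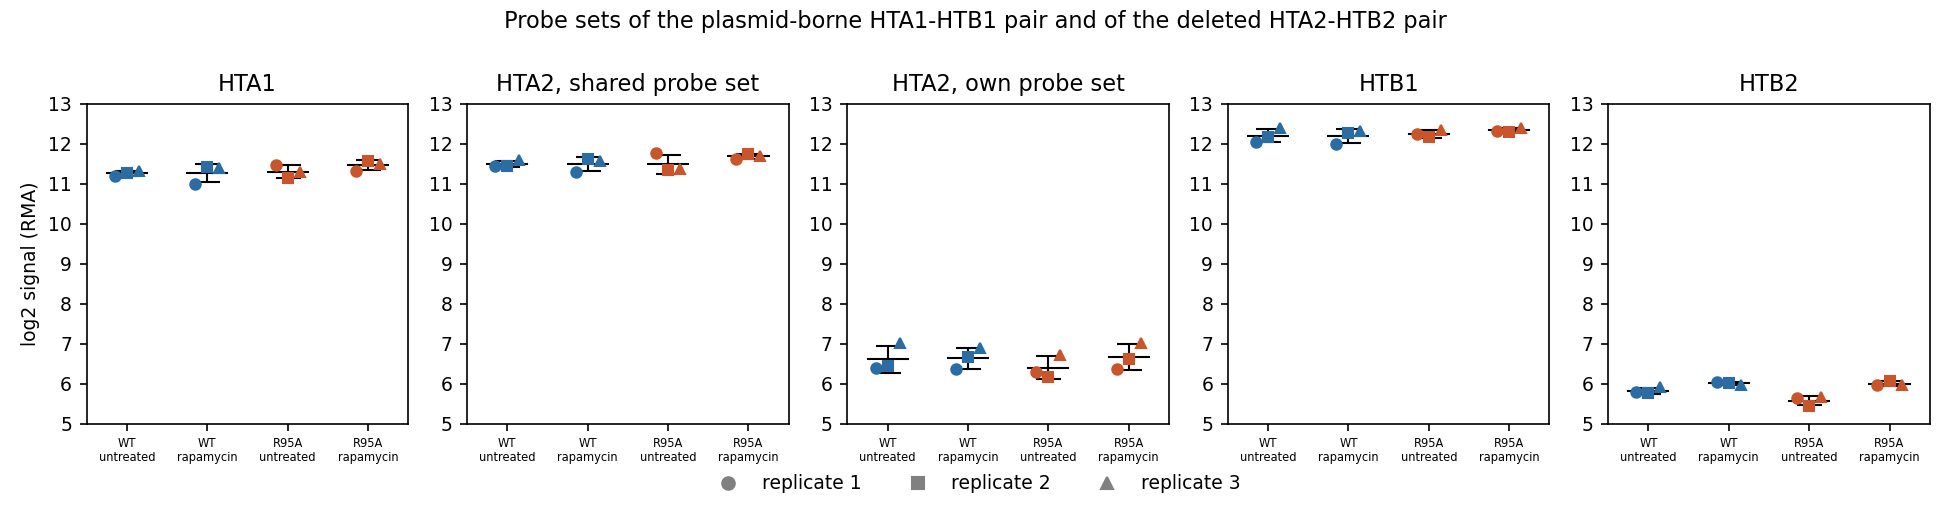
Log2 signal (vertical axis) of the probe sets of HTA1, HTA2, HTB1 and HTB2 on the 12 arrays, by group, with a symbol for each replicate number and mean ± SD (n = 3). The shared HTA2 probe set gave 11.29 to 11.76, and the other probe sets of the deleted genes lie between 5.44 and 7.02.

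Core histone genes correlated positively with each other over the 12 arrays, with a Pearson r of 0.62 to 0.91 between pairs. HHT1 and HHT2 had an r of 0.91, HHT2 and HHF1 with 0.87, HTB1 and HHF1 with 0.82 and HTA1 and HTB1, which share the plasmid, with 0.76. HHT1 and HHF1, neighbours on the chromosome in the RefSeq annotation of assembly R64, had 0.78. HTZ1 ran the other way, with an r of -0.70 to HHT1 and -0.58 to HHT2. Its r was weaker to HHF1 (-0.40), HTA1 (-0.34) and HTB1 (-0.33). HHO1 had an r of 0.00 to HHT1 and 0.25 to HHF1, with the other core genes in between. The HTA2 probe set at 6.16 to 7.02, of a deleted gene, also correlated with the core genes. Its r was 0.84 to HHT1, 0.82 to HHT2, 0.77 to HHF1, 0.72 to HTB1 and 0.49 to HTA1. The share of all tested probe sets with such an r was not counted. These values describe 12 arrays that share groups and replicate numbers. After the group means were taken off, HHT1 and HHT2 still had 0.90, and HTZ1 had -0.68 to HHT1 and to HTA1.

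Replicate 1 was lowest for HHT2 in 4 of 4 groups and highest for CSE4 in 4 of 4. HHT1 in replicate 1 lay below the mean of replicates 2 and 3 by 0.81 in untreated WT, 0.83 in treated WT and 0.82 in treated R95A, but above it by 0.03 in untreated R95A. Of the sum of squares within groups, the replicate number took 82.8% for HHT2, 73.3% for HHT1, 69.0% for CSE4, 64.2% for HTB1, 52.6% for HHF1, 46.6% for HHO1, 20.5% for HTA1 and 15.7% for HTZ1, beside a median of 57.6% over all tested probe sets. HTZ1, HTB1 and HTA1 were among the least variable probe sets within groups, with a mean SD below that of all but 1.91%, 2.89% and 5.89% of tested probe sets. HTB1 and HTA1 were also brighter than 99.85% and 98.71% of tested probe sets. Whether compression of bright signals has a part in their low spread was not tested.

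**Figure D4:**
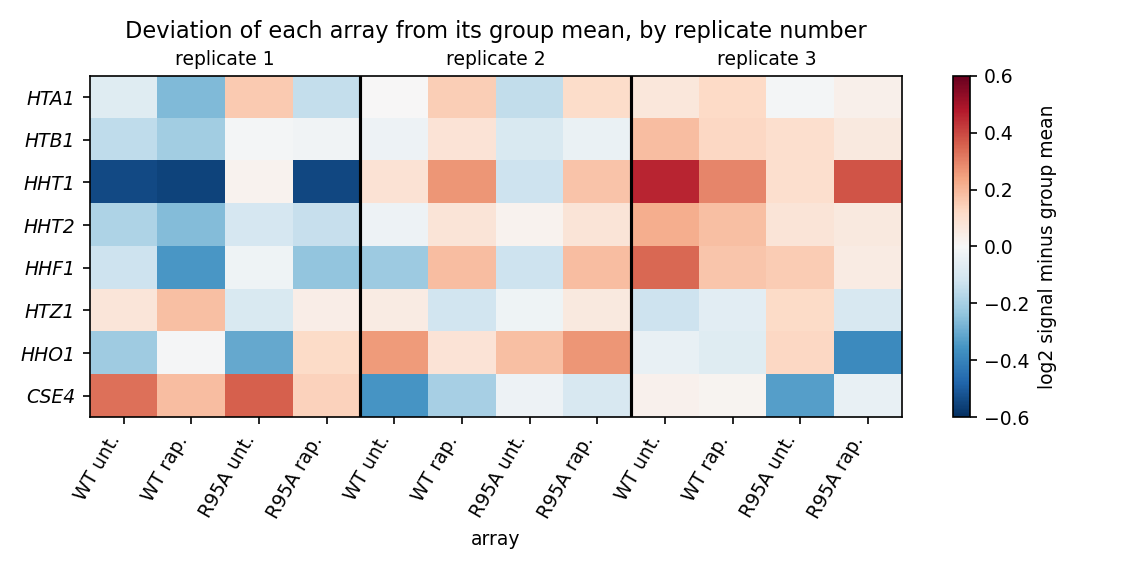
Colour gives the log2 signal of each array minus its group mean, for 8 histone genes (rows) and 12 arrays ordered by replicate number (columns). HHT1 is low on 3 of the 4 replicate 1 arrays, and CSE4 is high on all 4.

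Outside the histone genes, the probe sets most like the mean of the 5 core genes over the 12 arrays were YGR111W (r = 0.96), ERG9 (r = 0.96), which codes for squalene synthase, YSC84 (r = 0.95) and AIP1 (r = 0.95), both linked to the actin cytoskeleton, and RRT12 (r = 0.95). For HTZ1 they were MDE1 (r = 0.92), of methionine salvage, TPT1 (r = 0.91), a tRNA phosphotransferase, and YNR061C (r = 0.91). For HHO1 they were STU2 (r = 0.90), a microtubule-binding protein, LAP3 (r = 0.86), an aminopeptidase, and MCM2 (r = 0.84), of the replicative helicase. For CSE4 they were PEX15 (r = 0.96), a peroxisomal membrane protein, AKR2 (r = 0.95) and DAD3 (r = 0.95), of the DASH complex at the kinetochore. With 12 arrays in 4 groups and 5498 candidates, values this high describe these arrays only.

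The regulators of histone transcription did not pass the test in any comparison (0 of 13 genes in each, in limma). Without rapamycin SPT5, an elongation factor, had the largest difference of the list between strains, 0.96 higher in R95A (SE 0.35, unadjusted p = 0.0188, adjusted p = 0.733), with groups that did not overlap. The same held for 6.91% of all tested probe sets in that comparison. MBP1, the DNA-binding part of MBF, was at -0.61 (SE 0.29, adjusted p = 0.733), SWI6, shared by SBF and MBF, at -0.43 and HIR3, of the HIR complex, at 0.42. SPT5 was at 5.99 on untreated WT replicate 3 and at 7.00 and 7.06 on the other two, and without that array the differences were 0.61 for SPT5, -0.46 for MBP1, -0.14 for SWI6 and 0.20 for HIR3. With rapamycin in both strains the list ran from -0.08 to 0.32, with SWI4 at 0.32 and SPT21, an activator of histone genes, at 0.28. For rapamycin in R95A, SWI6 was at 0.58 and SWI4 at 0.42 (adjusted p = 0.489 and 0.577).

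Of the 14 genes for SWR1 and H2A.Z exchange, 0 passed the test in any comparison. RVB1, a helicase subunit shared by SWR1 and INO80, had the lowest unadjusted p among those named, at -0.66 with rapamycin in R95A (SE 0.19, unadjusted p = 0.00505, adjusted p = 0.134) and -0.53 in WT, without overlap in both. Groups did not overlap for 17.9% of all tested probe sets with rapamycin in R95A and for 7.69% in WT. BDF1, a bromodomain protein of SWR1, was at 0.67 in R95A (adjusted p = 0.269), and SWR1 itself was at 0.29 between the treated strains. With rapamycin in R95A the list median was 0.11, beside 0.10 over all tested probe sets. Between the treated strains 14 of 14 were positive with a median of 0.12, beside 53.9% positive and a median of 0.02 over all. With spike-in centring that median over all was -0.35, and this list was not counted on that scale. HTZ1 itself was at -0.08 and 0.09 in these comparisons.

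Among the 14 histone chaperones and import factors, again 0 passed. KAP123, an importin for H3 and H4, was at 1.04 between the untreated strains (SE 0.62, adjusted p = 0.733) and at -1.03 with rapamycin in R95A (adjusted p = 0.410). The first value rests on untreated WT replicate 3, where KAP123 was at 6.47 against 8.50 and 8.49, and was 0.37 without it. PSE1, another importin, was at -0.95 with rapamycin in R95A (SE 0.33, unadjusted p = 0.0147, adjusted p = 0.183). MSI1, a subunit of the CAF-1 chaperone, was at 0.59 with rapamycin in WT, and ASF1, an H3-H4 chaperone, at 0.32 between the treated strains. Of the 14, 11 were positive between the untreated strains, with a median of 0.22. Over all tested probe sets 45.2% were positive, with a median of -0.04. The mean of the list was 7.02 on untreated WT replicate 3, the lowest of the 12 arrays, which is also the array low in ribosome biogenesis genes.

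The 13 partners of CSE4 at the centromere had 0 called genes in each comparison. With rapamycin in R95A, 12 of 13 were positive, CTF13 at 0.57, CTF19 at 0.52 and AME1, an inner kinetochore protein, at 0.49 (SE 0.22, unadjusted p = 0.0490, adjusted p = 0.284), and the median of 0.17 lay beside 0.10 over all tested probe sets. Of all tested probe sets, 59.8% were positive there. The list mean was highest on replicate 1 in each group (5.81 to 6.02, against 5.53 to 5.81 on the other 8 arrays), the arrays on which CSE4 was also highest.

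Genes of S phase are given beside the histone genes, without a test of the difference. Between the untreated strains all 20 were positive, with a median of 0.30, and 0 of 20 passed the test. Over all tested probe sets 45.2% were positive, with a median of -0.04. CDC21, thymidylate synthase, was at 1.14 (SE 0.76, adjusted p = 0.733) and RNR1, of ribonucleotide reductase, at 0.84, and without untreated WT replicate 3 they were at 0.41 and 0.27. The mean of the list was 5.83 on untreated WT replicate 3 against 6.73 and 6.71 on replicates 1 and 2, while the mean of the 5 core histone genes was 11.48 on that array against 11.01 and 11.19. With rapamycin in R95A, 2 of 20 S phase genes were positive and the median was -0.21, beside 0.22 for the 8 histone genes. Over all tested probe sets 59.8% were positive in that comparison, with a median of 0.10. The S phase mean went from 6.69 to 7.22 in replicate 1, from 7.00 to 6.53 in replicate 2 and from 6.86 to 5.92 in replicate 3, so its direction differed between replicates. For the 11 G2 to M genes measured, 0 passed in each comparison and the medians lay between -0.11 and 0.13. Of 12 M to G1 genes, RME1, a repressor of meiosis, passed as lower in R95A, by -2.31 untreated (adjusted p = 0.00763) and -1.85 with rapamycin (adjusted p = 0.0448, limma), and the other 11 did not.

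**Figure D5:**
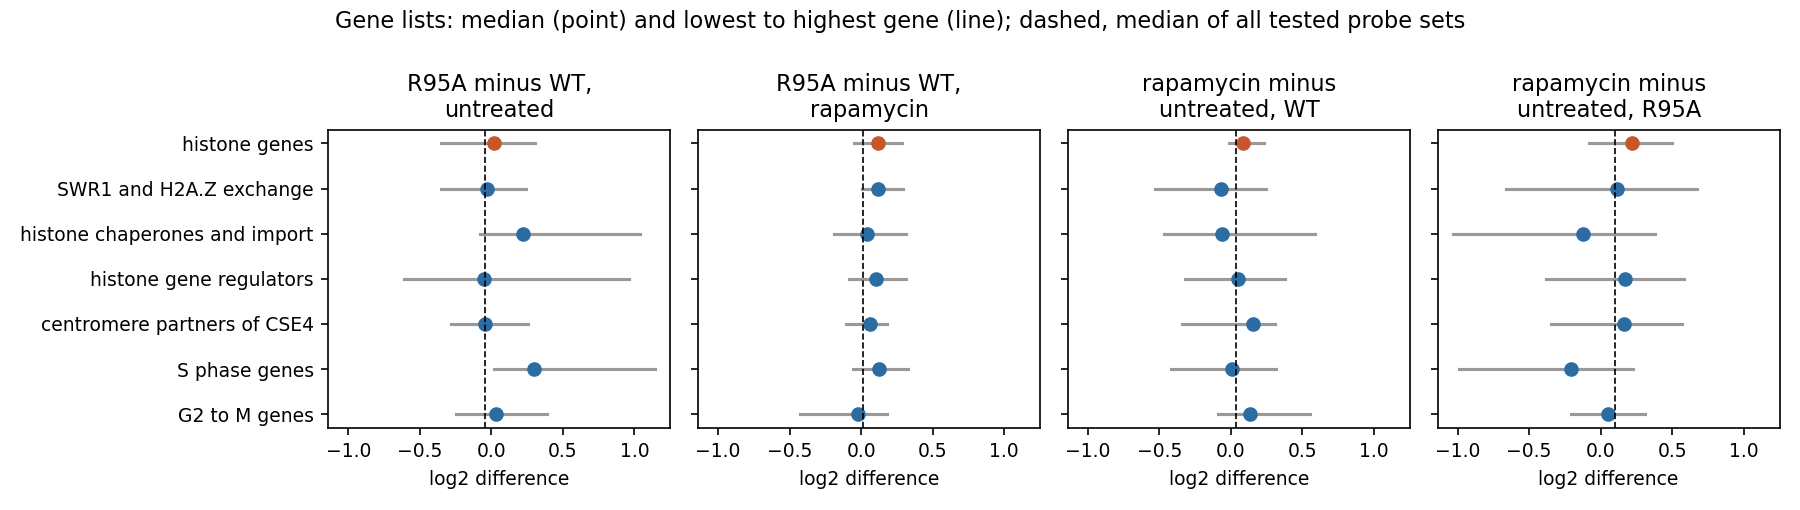
Median log2 difference (point) and the lowest to highest gene (line) for the 8 histone genes and 6 related lists in the 4 comparisons of groups; the dashed line is the median of all tested probe sets. Histone genes span -0.35 to 0.50, and the S phase genes lie at 0.30 between untreated strains and -0.21 for rapamycin in R95A.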

How the data were processed

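RNA of 12 samples was measured on Affymetrix Yeast Genome 2.0 arrays, with 1 label colour. The authors ran RMA on the scans in FlexArray 1.6.3, and the deposited values are log2 signals after background correction and quantile normalization. Quantile normalization gives every array nearly the same distribution, so a change of all mRNAs together cannot be seen. No aligner or genome build applies, and no sequence is printed. All 12 columns were matched to a sample. Of 10928 probe sets, the 5498 with 1 S. cerevisiae gene were tested, and 3517 with no listed gene, 1747 annotated otherwise (1746 of them S. pombe) and 166 controls were left out.

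Calculations used R 4.3.3 and limma 3.58.1, and figures Python 3.11.15 and matplotlib 3.10.9. A mean was fitted per group over 12 arrays, with eBayes and a trend, and p-values were adjusted by Benjamini-Hochberg over all 5498. No replicate block was used in this main fit, so its intervals and p-values leave out any pairing of replicate numbers. Replicate numbers count as pairing where the deviations of every same-numbered pair from their group means correlate above 0.1, which held between the treated strains (r = 0.74 to 0.88) and for rapamycin in WT (0.41 to 0.84). The methods name cyber-T with 2-fold and a p threshold of 0.01, read here as at most 0.01. Cyber-T with adjusted p, and that threshold on limma's p, were tried as alternatives, and cyber-T at that threshold was added after seeing the data. With 3 against 3 arrays an exact permutation test cannot go below 0.1. The number of arrays limits precision. The code was tested on simulated data.

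The histone genes, the related lists and the tests were chosen with earlier results of these data known. All histone genes were named, with up to 4 genes of each related list per comparison by size of difference, plus the probe sets most like them over the arrays. Lists counted a gene by its brightest probe set, and no set test was run.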

Additional observations from a re-analysis of the deposited data

Results flagged for a closer look

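The array also holds probe sets for fission yeast, which was not in these samples. Of 9 fission yeast histone probe sets, 3 gave a mean signal above 1.37, the 95th percentile of the 1746 fission yeast probe sets: hta1 at 3.31, and a pair for hht1 at 2.07 and 1.46. The other 6 gave 0.67 to 1.33. Histones are among the most conserved proteins, and whether budding yeast histone mRNA reached these probe sets was not tested. With 3 arrays per group, no group was tested for a single array far from the others.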

How the results depend on the processing

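Of 1064 values of the 8 histone genes under the alternatives run, 1 passed the test, HHT1 for rapamycin in R95A without replicate 1 of all groups, so the count of histone genes was 0 to 1 there over the fits that leave out arrays and 0 in the other 4 comparisons under every alternative run. The sign of a value changed in 88 of the 1064, none of them past the test, 18 of them under spike-in centring, which took the median over all probe sets tested from -0.04 to -0.22 between untreated strains, from 0.02 to -0.35 between treated strains and from 0.10 to -0.12 for rapamycin in R95A. Over all tested probe sets, the count called between untreated strains was 22, and 53 at the methods' threshold (p at most 0.01 and 2-fold, on limma's p), 47 with array weights, 8 with only the arrays compared, 43 with the replicate block as random and 0 to 59 with arrays left out (41 without replicate 1 of all groups). Between treated strains it was 19, and 30 with cyber-T, 38 at the methods' threshold, 38 with array weights, 12 with only the arrays compared, 36 with the replicate block, 32 with it as random and 0 to 24 with arrays left out (8 to 20 with a single array left out). For rapamycin in WT it was 0, and 7 with cyber-T and 28 at the methods' threshold. For rapamycin in R95A it was 0, and 254 with cyber-T, 283 at the methods' threshold, 1030 with array weights, 496 with the random replicate block, and 0 to 723 with arrays left out (117 without untreated WT replicate 3, 723 without untreated R95A replicate 1, 713 without replicate 1 of all groups). For the difference of the responses it was 0, and 1 at the methods' threshold. With cyber-T at the methods' threshold, chosen after seeing the data, 1.31% and 0.946% of the tested probe sets passed between untreated and treated strains and 1.84% and 7.88% for rapamycin in WT and R95A, against 0.964%, 0.691%, 0.509% and 5.15% with limma's p, and 0 of 8 histone genes in each. The cause of these differences was not tested. Between the untreated strains and for rapamycin in R95A the numbers do not pair the arrays by the rule used (lowest same-number r of 0.06 and 0.01), and the fixed block moved the count at an adjusted p under 0.05 by over 1.5 times between the treated strains only. At an unadjusted p under 0.05 the fixed block took the count from 271 to 789 between untreated strains, 83 to 158 between treated strains, 235 to 506 and 953 to 1828 for rapamycin in WT and R95A, and 8 to 74 for the difference of the responses, with 1 histone gene among them (HHT1, rapamycin in R95A). Its adjusted p from limma was 0.123. Cyber-T was not run for the difference of the responses. Where a fit left 2 arrays in a group, the spread was pooled over the groups.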
